A study of Mus musculus with 48 samples.

Results

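Day 8 of V580 induction was compared with day 6 in bulk RNA-seq of gonadal somatic cell-like cells (GSCLCs), with 3 libraries of V580_D8 against 3 of V580_D6, which are 6 of the 48 samples of the series. The cells were derived from C57BL/6 mouse embryonic stem cells (ESCs, cells of the early embryo that can form every embryonic lineage), which the study describes as female. V580 is the combination of vitamin C (Vc) and AM580, an agonist of the retinoic acid receptor alpha, and every V580 library of a day carried both agents. The same table also held V580_D4 and V580_D10 libraries, and E12.5_GC libraries of cells taken from female mouse gonads at E12.5, with 3 of each. In the study's protocol the ESCs were grown on inactivated fibroblast feeders, which were reduced by letting them adhere before the cells were seeded on fibronectin, and SSEA1-positive cells were removed from GSCLCs used in aggregates. Whether the libraries of days 6 and 8 came from SSEA1-depleted cells, and whether the 3 libraries of a day came from separate cultures, is not given in the sources used here. The spread within a day may therefore be technical. The p-values rest on a spread per gene that was estimated from all 15 libraries of these 5 groups, E12.5_GC included. A bulk library averages all cells of the dish, and fewer cells of a type and less RNA per cell cannot be told apart.

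Gonadal somatic cells arise from the coelomic epithelium over the mesonephros, a mesothelium-like sheet that expresses Wt1 and Gata4. Those cells enter the genital ridge and become supporting cells (granulosa precursors in the female, marked by Foxl2) or interstitial and stromal cells, which lay down a matrix rich in collagens. Vitamin C is a cofactor of the prolyl and lysyl hydroxylases that stabilise collagen and of the Tet enzymes that oxidise methylated DNA, whereas retinoic acid receptors are transcription factors switched by their ligand.

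FPKM (fragments scaled to exon length and to the mapped fragments of the library) was available for 13682 genes, of which 11512 reached 1 FPKM in at least 3 of the 15 libraries and were tested. Multiplied by exon length, the values of 95.0% of the genes were whole numbers of fragments in all 15 libraries within a tolerance of 0.05 fragments, which gave an estimated depth of 22211243 to 28044528 mapped fragments in the 6 libraries of days 6 and 8. Between replicates the root mean square difference in log2(FPKM + 1) was 0.0891 to 0.101 at day 6 and 0.0971 to 0.142 at day 8, against 0.357 to 0.385 between libraries of the 2 days. The E12.5_GC replicates, which enter the same estimate of the spread, differed more from each other, by 0.289 to 0.433. The libraries of day 8 were not equally close. Replicate 1 differed from replicates 2 and 3 by a chi-square per degree of freedom of 7.64 and 8.91, and those replicates differed from each other by 2.95. Several counts without replicate 1 are given beside the results.

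Fold changes are differences in log2(FPKM + 1), day 8 minus day 6, given with their SE, so that the changes of genes of low level are understated. A gene passed the test when its adjusted p in limma was below 0.05, and it was called when it also changed at least 2-fold on this scale. A gene that did not pass was not shown to be unchanged. Of the genes tested, 293 were called (2.55%), of which 264 were higher at day 8 (2.29%) and 29 were lower (0.252%). Without replicate 1 of day 8, 279 were called, 246 higher and 33 lower. The figures that follow are with all libraries. The share of called genes that were higher was therefore 90.1%. By adjusted p alone 4737 genes passed (41.1%), and these were split almost evenly, with 2332 higher (20.3%) and 2405 lower (20.9%). The changes that passed were thus mostly smaller than 2-fold in both directions, and the falls more often so than the rises. All 264 genes called higher and all 29 called lower had no overlap between the 3 libraries of either day, against 32.3% of all genes with day 8 entirely above day 6 and 36.6% with day 8 entirely below. Differences of at least 4-fold were found for 20 genes that rose and for 2 that fell, Col2a1 and Cxcl15.

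**Figure D1:**
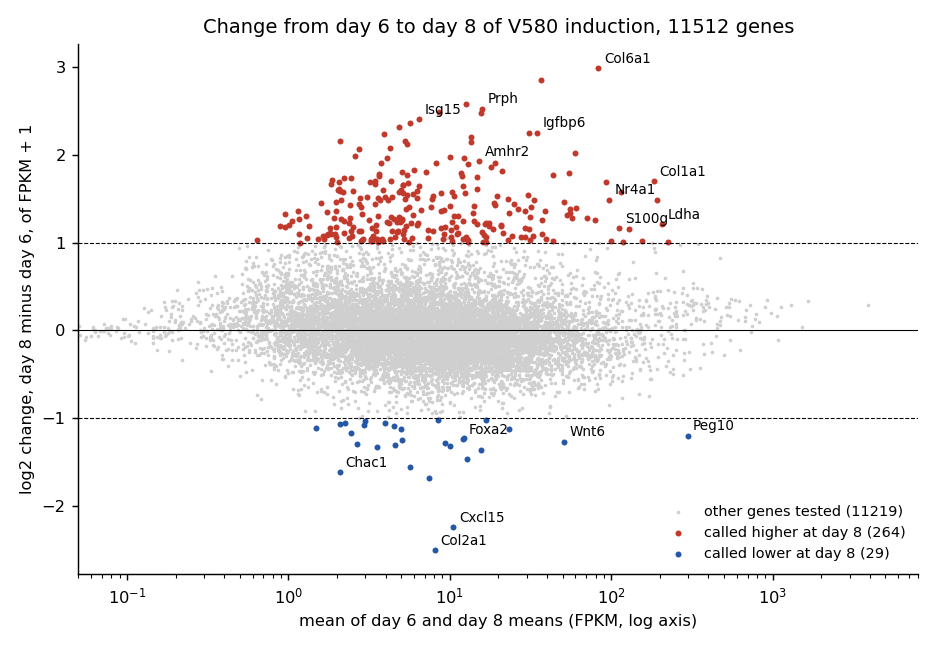
Each point is 1 of 11512 genes, with the mean of the day 6 and day 8 means in FPKM on a log axis and the difference in log2(FPKM + 1), day 8 minus day 6, on the other axis. The 264 genes called higher (red) outnumber the 29 called lower (blue), and dashed lines mark a 2-fold change.

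Collagen and matrix genes gave the largest rises. Of 36 such genes listed and tested, 29 were higher by adjusted p, 20 of them at least 2-fold, and 2 were lower, with a median difference of 1.10 against -0.02 over all genes tested. The shares over all genes were 20.3% higher, 2.29% at least 2-fold higher and 20.9% lower. The list does not hold every collagen gene, and Col2a1 and Col11a1, which lie outside it, were called lower and are described with the largest falls. With a pseudocount of 5 in place of 1, 11 genes of the list were called higher. Col6a1 (chr10:76708792-76726168), which encodes a chain of the microfibrillar collagen VI, had 18.6, 17.4 and 17.5 FPKM in the day 6 libraries and 173, 135 and 139 FPKM in those of day 8. The lowest library of day 8 was far above the highest of day 6, and the mean FPKM was 8.36 times as high (log2 difference 2.99 ± 0.091, adjusted p = 1.17e-10). Col6a2 (chr10:76595762-76623630), a neighbour of Col6a1 whose product joins the same trimer, went from 8.23, 7.82 and 8.24 to 76.6, 58.8 and 59.3 FPKM (log2 difference 2.85 ± 0.10, adjusted p = 1.59e-10). Col6a3, the third chain, rose from a mean of 1.07 to 5.78 FPKM (1.70 on the log2 scale). Col15a1 (chr4:47208161-47313167), which encodes a collagen of basement membrane zones, had 2.04, 1.90 and 1.74 FPKM at day 6 and 17.2, 14.2 and 14.5 FPKM at day 8 (log2 difference 2.49 ± 0.13, adjusted p = 3.46e-09).

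The fibrillar collagens rose from higher starting levels. Col1a1 had 90.1, 82.5 and 83.4 FPKM at day 6 and 339, 253 and 252 FPKM at day 8, Col1a2 went from a mean of 32.9 to 88.7 FPKM, and Col3a1 from 43.5 to 143 FPKM, with log2 differences of 1.70, 1.40 and 1.69. The chains of collagen V, Col5a1 and Col5a2, rose by 1.04 and 1.66. Among the small proteoglycans, Bgn (chrX:73483602-73495933) had 4.66, 4.004 and 3.96 FPKM at day 6 and 25.3, 21.7 and 21.8 FPKM at day 8 (log2 difference 2.20 ± 0.081, adjusted p = 1.99e-10). Dcn rose from a mean of 6.23 to 23.2 FPKM and Lum from 4.21 to 10.5 FPKM. Of genes with a part in elastic fibres, Eln rose, at 0.544 and 3.66 FPKM, as did Fbln5, at 1.73 and 5.29 FPKM, and Lox, which crosslinks both collagen and elastin, at 1.96 and 7.95 FPKM. Mmp2, a secreted gelatinase, rose from 100.1 to 282 FPKM, and Timp3, an inhibitor of such proteases bound to the matrix, from 11.6 to 34.6 FPKM. In contrast, Col18a1, a basement membrane collagen, fell from 185 to 112 FPKM and Fbn2, a microfibril gene of elastic fibres, from 36.6 to 26.7 FPKM, both by less than 2-fold, and Col14a1, Col4a5, Col4a6, Timp1 and Thbs1 did not pass. Members beyond Col6a1, Col6a2, Col15a1 and Bgn were chosen after their values were seen. Without replicate 1 of day 8, 19 of the 36 genes were called higher.

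The means of Col6a1 and Col1a1 at days 4 and 10 lay on either side of those at days 6 and 8. Col6a1 had a mean of 2.90 FPKM at day 4 and 334 FPKM at day 10, and Col1a1 had 39.1 and 782 FPKM. In the E12.5_GC libraries the means were 53.6 ± 3.40 FPKM for Col6a1 and 84.0 ± 10.5 FPKM for Col1a1 (SD, n = 3), so that the day 8 mean of both lay above the gonadal mean while that of day 6 lay below it for Col6a1 and close to it for Col1a1.

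Genes of the enzymes that use vitamin C moved unequally. Of 13 listed genes, 12 were tested, and their median was 0.29. By adjusted p 6 were higher and 0 were lower, against 20.3% and 20.9% of all genes. Day 8 lay entirely above day 6 for 8 of the 12 and entirely below for 3, against 32.3% and 36.6% of all genes. P4ha1 (chr10:59323296-59373304), the catalytic subunit of the prolyl 4-hydroxylase that acts on collagen, had 21.6, 20.9 and 21.8 FPKM at day 6 and 62.1, 54.8 and 53.6 FPKM at day 8, and it was the only member called at least 2-fold (log2 difference 1.36 ± 0.071, adjusted p = 4.04e-09). P4ha2, P3h1, Plod1, Plod2 and Plod3, which hydroxylate proline or lysine of collagen, passed by less than 2-fold. Tet1, Tet2 and Tet3 had differences of -0.17, -0.19 and -0.40 and did not pass, as did Slc23a2, a vitamin C transporter, at -0.12.

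**Figure D2:**
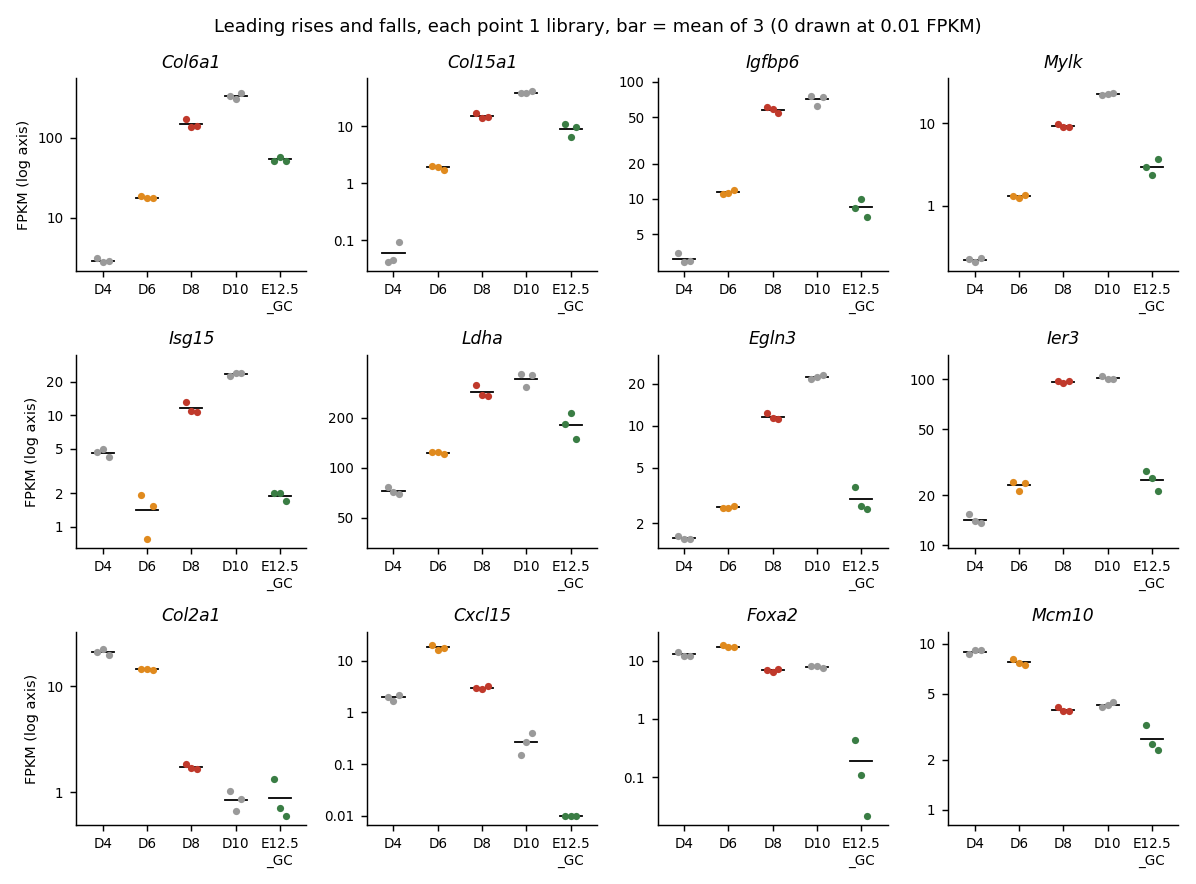
FPKM of 12 genes on log axes in V580 libraries of days 4, 6, 8 and 10 and in E12.5_GC libraries, with 1 point per library and a bar at the mean of 3. For each gene the 3 points of day 8 (red) lie apart from the 3 of day 6 (orange), as in Col6a1, where 135.3 was the lowest at day 8 and 18.6 the highest at day 6. Day 8 lay entirely above day 6 for 32.3% of all genes tested and entirely below for 36.6%.

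Contractile and smooth muscle genes rose in part. Of 22 genes tested, 14 were higher by adjusted p, 5 of them at least 2-fold, and 1 was lower, with a median of 0.54. With a pseudocount of 5, 2 of them were called. The shares over all genes were 20.3% higher, 2.29% at least 2-fold higher and 20.9% lower. Mylk (chr16:34745210-35002420), the kinase that phosphorylates the myosin light chain, had 1.31, 1.23 and 1.35 FPKM at day 6 and 9.87, 8.90 and 9.03 FPKM at day 8 (log2 difference 2.16 ± 0.091, adjusted p = 6.28e-10). Actg2, the gamma actin of enteric smooth muscle, had 18.6, 17.3 and 15.04 FPKM at day 6 and 58.2, 45.3 and 45.2 FPKM at day 8 (log2 difference 1.49 ± 0.13, adjusted p = 6.69e-07). Myh11, the smooth muscle myosin heavy chain, rose from a mean of 2.11 to 6.28 FPKM, and Des, the intermediate filament desmin, from 12.1 to 29.1 FPKM. Acta2, the most used marker of this lineage, had a mean of 119 FPKM at day 6 and 239 FPKM at day 8, just under 2-fold on the scale used (0.99). Myocd, the coactivator that drives this programme together with Srf, had 0.471 ± 0.0508 FPKM at day 6 and 1.83 ± 0.0330 FPKM at day 8 (SD, n = 3) and passed by less than 2-fold, whereas Srf itself had 42.2 and 36.8 FPKM and did not pass. Flna, Tpm1, Tpm4, Myl6, Vcl and Cnn2, actin-binding genes found in most adherent cells, did not pass either. The E12.5_GC mean was 0.369 FPKM for Actg2 and 15.95 FPKM for Acta2, under those of both days.

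Several epithelial genes fell by less than 2-fold while several mesenchymal ones rose. Of 31 tested genes of junctions, keratins and their regulators, 13 were lower and 7 higher by adjusted p, against 20.9% and 20.3% of all genes, with a median of -0.25. Cdh1 (E-cadherin) had 88.0, 77.6 and 83.5 FPKM at day 6 and 56.7, 49.2 and 50.0 FPKM at day 8 (log2 difference -0.67 ± 0.18, adjusted p = 0.00806). Epcam had 90.8, 80.4 and 83.3 FPKM at day 6 and 58.9, 60.5 and 56.5 FPKM at day 8 (log2 difference -0.52 ± 0.088, adjusted p = 2.68e-04). The libraries of either gene did not overlap between days, and day 8 lay entirely below day 6 for 36.6% of all genes. Krt18, Cldn3, Cldn7, Dsp and Esrp1, an epithelial splicing factor, also fell by less than 2-fold. On the mesenchymal side, Snai1 (chr2:167538195-167542814), a repressor of Cdh1, had 6.58, 5.60 and 5.92 FPKM at day 6 and 18.3, 15.2 and 15.6 FPKM at day 8 and was called (log2 difference 1.30 ± 0.12, adjusted p = 8.85e-07), and Snai2, Zeb1, Zeb2 and Vim rose by less than 2-fold. Krt19 also rose, from 169 to 231 FPKM. Cdh2 (N-cadherin) fell from 16.7 to 12.99 FPKM. Apart from Snai1, these members were chosen after their values were seen. Cdh1 and Epcam had 0.776 and 5.35 FPKM in E12.5_GC.

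Mesothelial genes included 3 calls. Of 15 tested, 8 were higher and 2 lower by adjusted p, against 20.3% and 20.9% of all genes, with a median of 0.40. Msln (mesothelin) had 5.71, 4.34 and 5.03 FPKM at day 6 and 17.7, 15.5 and 15.7 FPKM at day 8 (log2 difference 1.53 ± 0.097, adjusted p = 2.89e-08). Upk1b had 9.05, 12.1 and 9.81 FPKM at day 6 and 23.4, 26.3 and 24.3 FPKM at day 8 (log2 difference 1.19 ± 0.11, adjusted p = 1.65e-06). Gpm6a had 1.42, 1.37 and 1.25 FPKM at day 6 and 3.99, 4.20 and 4.28 FPKM at day 8 (log2 difference 1.14 ± 0.083, adjusted p = 1.15e-07). Upk3b and Wt1 rose by less than 2-fold, and Aldh1a2, which makes retinoic acid, fell from 70.0 to 46.8 FPKM (-0.57). The list shares Krt8, Krt18, Krt19 and Krt7 with the epithelial genes, and Msln was near 0 in E12.5_GC, at 0.0658 FPKM.

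Regulators of gonadal somatic cells moved by smaller steps than matrix genes did. Of 30 listed gonadal somatic regulators, 26 were in the table and tested, 10 were higher and 6 lower by adjusted p, against 20.3% and 20.9% of all genes. There were 2 calls, both higher, and the median was 0.08. Gata4, a zinc finger factor needed for the genital ridge, had 17.5, 15.96 and 17.5 FPKM at day 6 and 30.8, 29.9 and 29.2 FPKM at day 8, with no overlap and a difference under 2-fold (log2 difference 0.78 ± 0.058, adjusted p = 1.38e-07). Day 8 lay entirely above day 6 for 32.3% of all genes. Foxl2, the marker of granulosa precursors, had 3.01, 3.34 and 3.29 FPKM at day 6 and 3.33, 2.93 and 2.83 FPKM at day 8, and these ranges overlapped (log2 difference -0.065 ± 0.15, adjusted p = 0.765). The E12.5_GC means were 144 ± 7.38 FPKM for Gata4 and 23.2 ± 6.45 FPKM for Foxl2 (SD, n = 3).

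Zfpm2 (Fog2, chr15:40655035-41104592), the cofactor that binds Gata4, had 2.45, 2.79 and 2.62 FPKM at day 6 and 6.94, 6.68 and 7.10 FPKM at day 8 (log2 difference 1.13 ± 0.12, adjusted p = 4.11e-06), and its day 8 mean lay beside the E12.5_GC mean of 6.84 ± 1.87 FPKM (SD, n = 3). Gata6 rose from 19.96 to 38.1 FPKM, Wnt4, a signal of ovarian fate, from 35.6 to 61.3 FPKM, and Wt1 from 45.1 to 59.98 FPKM, all by less than 2-fold. Amhr2 (chr15:102445367-102454633), the receptor of anti-Müllerian hormone, had 5.25, 6.35 and 5.68 FPKM at day 6 and 25.3, 24.5 and 23.96 FPKM at day 8 (log2 difference 1.92 ± 0.11, adjusted p = 7.12e-09), against 129, 184 and 141 FPKM in the E12.5_GC libraries. The defining factor Nr5a1 was near 0, with 0.0377 FPKM at day 6, 0.00995 FPKM at day 8 and 78.2 FPKM in E12.5_GC. Lhx9 had 0.126 and 0.0672 FPKM against 35.7 FPKM. Regulators that fell by less than 2-fold were Cbx2, Nr2f1, Nr2f2, Six4, Irx3 and Irx5. Cd63, the surface protein by which the study sorted cells in a separate experiment, had 54.1, 51.3 and 52.9 FPKM at day 6 and 71.0, 66.4 and 67.4 FPKM at day 8 (log2 difference 0.37 ± 0.12, adjusted p = 0.0286).

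**Figure D3:**
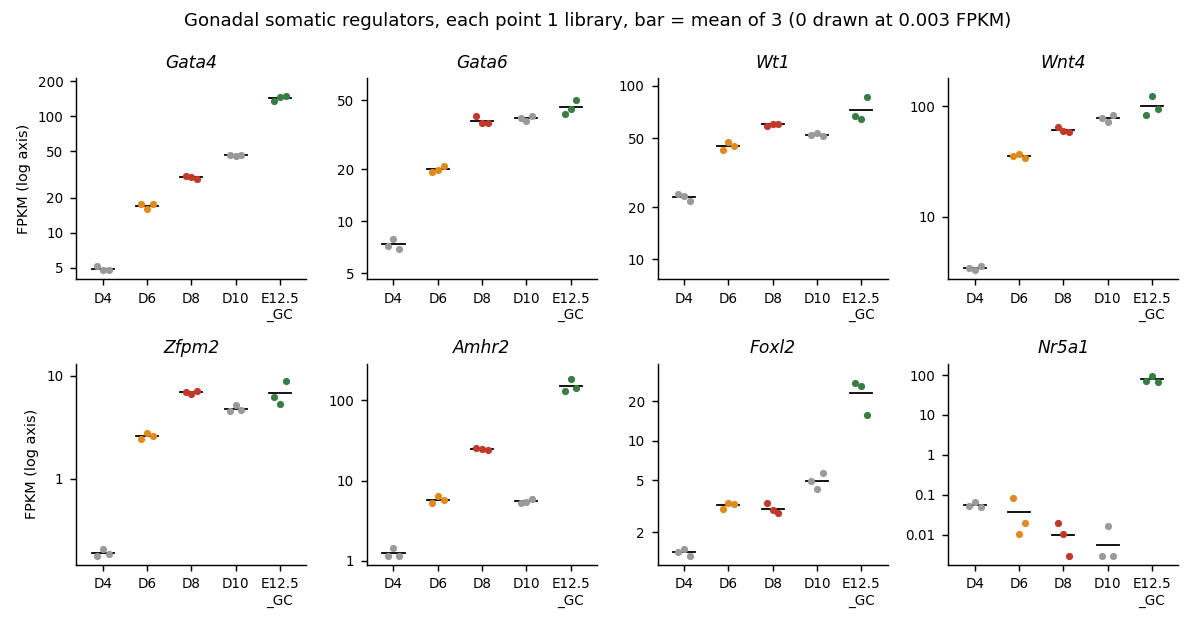
FPKM of 8 gonadal somatic regulators on log axes, with 1 point per library and a bar at the mean of 3. Gata4, Gata6, Wt1 and Wnt4 stand higher at day 8 than at day 6, the Foxl2 points of days 6 and 8 overlap, and Nr5a1 stays under 0.1 FPKM in the induced cells against a mean of 78.2 FPKM in E12.5_GC.

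Most interferon-stimulated genes tested rose. These genes answer to interferons through a complex that holds Stat2 and Irf9 and binds a repeated GAAA motif called the interferon-stimulated response element. Of 22 listed genes, 21 were tested, 17 were higher by adjusted p, 6 of them at least 2-fold, and 1, H2-D1, was lower, with a median of 0.59. The shares over all genes were 20.3% higher, 2.29% at least 2-fold higher and 20.9% lower. Isg15 (chr4:156199424-156200818), a ubiquitin-like modifier, had 1.92, 0.773 and 1.55 FPKM at day 6 and 13.1, 10.8 and 10.6 FPKM at day 8 (log2 difference 2.40 ± 0.14, adjusted p = 1.33e-08). Ifitm1, a membrane protein that restricts virus entry and is also known from early germ cells, had 4.49, 4.69 and 3.98 FPKM at day 6 and 25.1, 23.2 and 20.2 FPKM at day 8 (log2 difference 2.14 ± 0.15, adjusted p = 9.18e-08). Oasl2 had 0.468, 0.374 and 0.506 FPKM at day 6 and 3.87, 3.37 and 3.78 FPKM at day 8 (log2 difference 1.69 ± 0.067, adjusted p = 4.16e-10). Ifit1, which binds foreign RNA, had 0.231, 0.237 and 0.174 FPKM at day 6 and 2.18, 1.73 and 1.504 FPKM at day 8 (log2 difference 1.20 ± 0.10, adjusted p = 4.34e-07).

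Like every gene called higher, all 4 of these genes had no library of day 8 as low as the highest of day 6. Their levels stayed moderate. Usp18, which removes Isg15 from proteins, rose from 0.501 to 2.11 FPKM and Ifitm3 from 79.8 to 179.6 FPKM. The mediators rose by less than 2-fold, with Irf9 at 3.59 and 6.32 FPKM and Irf7 at 0.427 and 1.02 FPKM, and Stat2 at 2.24 and 2.51 FPKM did not pass. Ifi27l2a, a further interferon-induced gene outside the list, was among the 15 largest rises, with 0.379, 1.36 and 1.18 FPKM at day 6 and 10.9, 6.81 and 8.39 FPKM at day 8 (log2 difference 2.32 ± 0.24, adjusted p = 3.42e-06). Its day 6 values rest on only 4, 14 and 13 fragments. Of 13 leukocyte genes tested 1, Csf1r, was higher by adjusted p, and the summed level of the list was 6.02 to 6.57 FPKM at day 6 and 6.25 to 6.93 FPKM at day 8, most of it Cd68. Without replicate 1 of day 8, 14 of the 21 genes were higher by adjusted p and 6 were called. With all libraries and a pseudocount of 5, 3 were called.

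The promoter sequences of Isg15, Ifit1 and Ifit3 are shown because they hold the response element in front of genes that rose together. They are the 160 bases before the annotated start, from RefSeq on GRCm38.p6, read in the direction of the gene, with the matches in capitals. The motif searched was GAAA, any 2 bases and GAAA again, which reads as TTTC, any 2 bases and TTTC on the other strand.
Isg15 (chr4:156200819-156200978, - strand): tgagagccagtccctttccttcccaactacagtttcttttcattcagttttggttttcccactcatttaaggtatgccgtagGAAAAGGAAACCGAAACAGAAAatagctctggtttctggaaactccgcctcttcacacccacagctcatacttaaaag
Ifit1 (chr19:34640729-34640888, + strand): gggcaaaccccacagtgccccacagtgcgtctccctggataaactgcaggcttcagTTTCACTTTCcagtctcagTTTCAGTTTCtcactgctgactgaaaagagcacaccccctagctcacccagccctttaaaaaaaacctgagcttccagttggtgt
Ifit3 (chr19:34583369-34583528, + strand): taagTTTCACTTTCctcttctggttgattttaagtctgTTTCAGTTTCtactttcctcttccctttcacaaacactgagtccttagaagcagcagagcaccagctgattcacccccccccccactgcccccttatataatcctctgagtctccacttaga
In windows from 250 bases before to 50 bases after the start, searched on both strands, the motif was found for 10 of the 19 interferon genes with a window (B2m, Bst2, Ifit1, Ifit3, Ifitm2, Ifitm3, Isg15, Oas1a, Rsad2 and Stat2). Stat2 did not pass the test between days. Ifitm1, Oasl2 and Usp18, which rose, were not among the genes found, for lack of a match or of a window. The motif was found in 3.44% of all windows and for 3.38% of the 9095 tested genes with a window. Overlapping matches were counted separately, and the 3 matches in the Isg15 promoter overlap in this way. A match describes the letters of the sequence and does not show that a factor bound there, and the motif was chosen after the values of the list were seen.

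Most hypoxia-responsive and glycolytic genes rose. Of 26 tested genes, 18 were higher by adjusted p, 7 of them at least 2-fold, and 0 were lower, with a median of 0.57. The shares over all genes were 20.3% higher, 2.29% at least 2-fold higher and 20.9% lower. Egln3 (chr12:54178981-54203860), a prolyl hydroxylase that marks hypoxia-inducible factors for decay and is itself induced by them, had 2.59, 2.58 and 2.68 FPKM at day 6 and 12.4, 11.3 and 11.1 FPKM at day 8 (log2 difference 1.80 ± 0.086, adjusted p = 1.90e-09). Bnip3, a mitophagy receptor, had 9.34, 9.81 and 9.60 FPKM at day 6 and 30.0, 27.97 and 30.5 FPKM at day 8 (log2 difference 1.53 ± 0.077, adjusted p = 3.11e-09). Ldha, the lactate dehydrogenase subunit that turns pyruvate into lactate, had 125, 124 and 121 FPKM at day 6 and 317, 273 and 272 FPKM at day 8 (log2 difference 1.21 ± 0.11, adjusted p = 1.48e-06). Pdk1, a kinase that inhibits pyruvate dehydrogenase, had 6.08, 6.50 and 6.36 FPKM at day 6 and 15.4, 15.05 and 15.9 FPKM at day 8 (log2 difference 1.17 ± 0.061, adjusted p = 4.14e-09).

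In each of these 4 genes the libraries of the days did not overlap, as was so for every gene called. Slc16a3, the lactate exporter, rose from 17.7 to 41.1 FPKM, Pfkl from 18.7 to 43.1 FPKM and Ndrg1 from 4.54 to 11.1 FPKM. Tpi1, Pgk1, Gpi1, Pgam1 and Pkm, enzymes of the main glycolytic path, rose by less than 2-fold. Vegfa at 29.8 and 44.1 FPKM, Car9 at 0.656 and 0.726 FPKM and Slc2a3 at 41.7 and 41.97 FPKM did not pass. Eno3, the muscle enolase, was not in this list and fell, from 19.4, 19.4 and 18.8 FPKM at day 6 to 5.54, 6.602 and 6.89 FPKM at day 8 (log2 difference -1.47 ± 0.088, adjusted p = 1.70e-08). Gapdh and Aldoa have many processed pseudogenes, and their values are uncertain here: Gapdh had 3.10, 2.72 and 7.52 FPKM at day 6 and 14.6, 28.5 and 1.51 FPKM at day 8, and Aldoa had means of 1.94 and 1.65 FPKM, far below Ldha or Pgk1.

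Immediate early genes, which respond within minutes to growth factors and stress, were higher at day 8 in part. Of 19 tested, 10 were higher by adjusted p, 4 of them at least 2-fold, and 0 were lower, with a median of 0.43. The shares over all genes were 20.3% higher, 2.29% at least 2-fold higher and 20.9% lower. Ier3 (chr17:35821684-35822923) had 24.3, 21.4 and 23.7 FPKM at day 6 and 97.4, 94.7 and 98.4 FPKM at day 8 (log2 difference 2.02 ± 0.084, adjusted p = 5.50e-10). Junb, a subunit of the AP-1 factor, had 65.3, 47.2 and 59.1 FPKM at day 6 and 198, 149.9 and 167 FPKM at day 8 (log2 difference 1.57 ± 0.16, adjusted p = 2.98e-06). Zfp36, which destabilises messages with AU-rich elements, had 37.9, 27.2 and 33.6 FPKM at day 6 and 97.5, 69.8 and 77.3 FPKM at day 8 (log2 difference 1.28 ± 0.15, adjusted p = 1.42e-05). Replicate 1 was the highest of day 8 for both Junb and Zfp36. Nr4a1, an orphan nuclear receptor, had 55.1, 45.2 and 50.3 FPKM at day 6 and 119, 135 and 179 FPKM at day 8, with its highest value in replicate 3 (log2 difference 1.49 ± 0.23, adjusted p = 1.63e-04). Fos and Egr1 rose by less than 2-fold, from 338 to 601 and from 231 to 460.1 FPKM, whereas Jun, Fosb, Atf3, Klf6 and Myc did not pass.

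**Figure D4:**
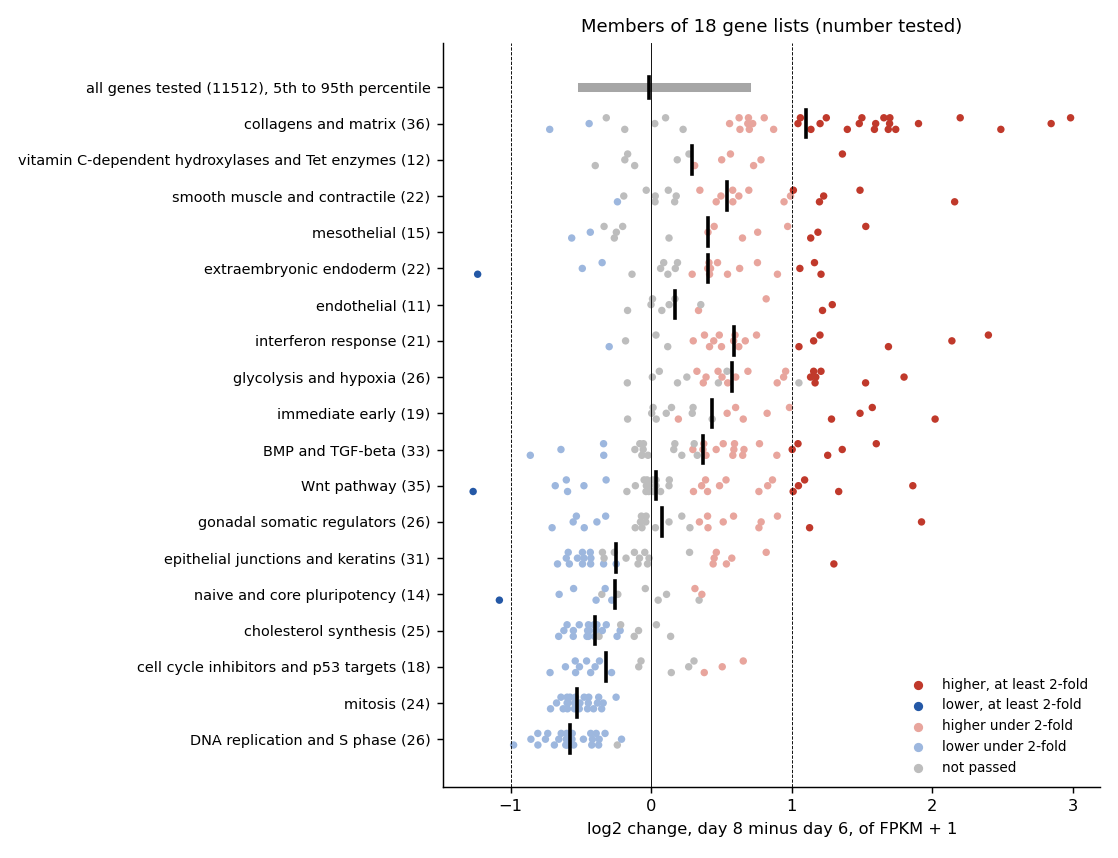
Differences in log2(FPKM + 1), day 8 minus day 6, of the tested members of 18 gene lists, with a bar at each median, and for all 11512 genes the median and the range from the 5th to the 95th percentile. Matrix genes lie farthest to the right with a median of 1.10, and the genes of DNA replication and mitosis lie to the left of 0 with medians of -0.58 and -0.53 and with no member past 2-fold.

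Genes of proliferation fell almost without exception, each by less than 2-fold. Of 26 genes of DNA replication and S phase, 25 were lower by adjusted p (median -0.58), and of 24 mitotic genes 24 were lower (median -0.53), against 20.9% of all genes. The exception was Gins2, at 9.65 and 8.01 FPKM (log2 difference -0.24 ± 0.11, adjusted p = 0.0851). Since no member changed at least 2-fold, those named here were chosen after their values were seen. Rrm2, the regulated subunit of ribonucleotide reductase, had 69.0, 71.0 and 68.9 FPKM at day 6 and 33.7, 34.98 and 35.8 FPKM at day 8 (log2 difference -0.98 ± 0.097, adjusted p = 2.17e-06). Mcm10, which helps to activate the replicative helicase, had 8.06, 7.68 and 7.46 FPKM at day 6 and 4.13, 3.94 and 3.90 FPKM at day 8 (log2 difference -0.81 ± 0.080, adjusted p = 2.30e-06). Uhrf1, which brings Dnmt1 to replicated DNA, had 52.6, 56.1 and 53.9 FPKM at day 6 and 31.8, 28.9 and 27.8 FPKM at day 8 (log2 difference -0.86 ± 0.084, adjusted p = 2.09e-06).

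The helicase subunits Mcm2 to Mcm7 fell by 0.33 to 0.64 on the log2 scale, with Mcm6 the least and Mcm7 the most changed. Ccne1, the G1/S cyclin, fell from 25.7 to 14.2 FPKM, Dnmt1, the maintenance DNA methyltransferase, from 42.2 to 24.95 FPKM, and Pcna, the polymerase clamp, from 98.1 to 64.2 FPKM. Among mitotic genes, Bub1, a checkpoint kinase, had 22.7, 22.8 and 22.4 FPKM at day 6 and 13.6, 12.49 and 14.2 FPKM at day 8 (log2 difference -0.72 ± 0.067, adjusted p = 1.25e-06), Ccnb1 fell from 44.96 to 28.4 FPKM, Plk1 from 50.9 to 33.3 FPKM and Mki67, which encodes the Ki-67 antigen, from 25.2 to 16.6 FPKM. Without replicate 1 of day 8 the counts were also 25 and 24. Inhibitors of the cycle and p53 targets did not rise as a group. Of 18 tested, 10 were lower and 3 higher by adjusted p, against 20.9% and 20.3% of all genes. Cdkn1a (p21) at 68.04 and 55.7 FPKM, Ccng1 at 129.9 and 89.0 FPKM and Bbc3 at 28.8 and 18.5 FPKM were among those that fell. Cdkn1b (p27) at 10.6 and 14.1 FPKM, Gdf15 and Btg2 were among those that rose.

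Promoters of Mcm6, a replication gene, and Cdk1, the mitotic kinase, are shown as examples of falling genes whose promoters hold a known cell cycle motif, which most members of either list lacked in the window searched. As above, they are the 160 bases before the start, with matches to the E2F site TTTGGCGC in Mcm6 and to the extended CCAAT box CCAATNAG, here as its reverse complement, in Cdk1 in capitals.
Mcm6 (chr1:128359706-128359865, - strand): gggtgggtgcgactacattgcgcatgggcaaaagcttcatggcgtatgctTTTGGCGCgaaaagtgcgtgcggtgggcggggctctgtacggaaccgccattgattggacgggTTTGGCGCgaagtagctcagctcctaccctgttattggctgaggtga
Cdk1 (chr10:69352913-69353072, - strand): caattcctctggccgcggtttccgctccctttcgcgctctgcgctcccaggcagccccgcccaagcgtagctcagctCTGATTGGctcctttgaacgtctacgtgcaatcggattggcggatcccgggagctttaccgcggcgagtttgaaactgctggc
The E2F site was found on either strand for 6 of the 22 replication genes with a window (Cdt1, Dnmt1, Mcm3, Mcm5, Mcm6 and Pola1) and for 1.18% of tested genes with a window, and in 0.514% of all windows. The extended CCAAT box was found for 8 of the 19 mitotic genes with a window (Aurka, Ccnb1, Cdk1, Cenpf, Hmmr, Kif23, Plk1 and Top2a) and for 11.3% of tested genes, and in 7.1% of all windows. The sterol regulatory element TCACNCCAC was found for 1 of the 17 cholesterol genes with a window (Hmgcs1), for 1.42% of tested genes and in 1.24% of all windows. These motifs too were chosen after the values of the lists were seen.

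Cholesterol synthesis fell by small steps. Of 25 genes of the mevalonate and sterol pathway tested, 19 were lower by adjusted p, 0 were higher and 0 changed 2-fold, with a median of -0.40. The shares over all genes were 20.9% lower and 20.3% higher. The 19 include Fdps, whose value is uncertain, since it was listed at 0.703 and 0.439 FPKM, the lowest level of the 19. Acat2, which condenses acetyl-CoA at the entry of the pathway, had 41.3, 43.8 and 43.96 FPKM at day 6 and 28.7, 26.3 and 25.8 FPKM at day 8 (log2 difference -0.66 ± 0.12, adjusted p = 7.04e-04). Hmgcs1, which makes HMG-CoA, had 55.1, 56.2 and 56.3 FPKM at day 6 and 40.9, 40.2 and 40.5 FPKM at day 8 (log2 difference -0.45 ± 0.059, adjusted p = 2.90e-05). The days did not overlap in either Acat2 or Hmgcs1, and day 8 lay entirely below day 6 for 36.6% of all genes. Srebf2, whose product drives the pathway, had means of 46.8 and 43.01 FPKM and did not pass. These members were chosen after their values were seen.

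Genes of the unfolded protein and amino acid responses were taken as 1 list. Of 19 tested, 7 were lower and 3 higher by adjusted p, against 20.9% and 20.3% of all genes, with a median of -0.26. Chac1, which degrades glutathione and is a target of Atf4, had 4.32, 2.94 and 3.71 FPKM at day 6 and 0.474, 0.550 and 0.501 FPKM at day 8 (log2 difference -1.62 ± 0.11, adjusted p = 4.05e-08). Atf4 itself fell from 94.4 to 65.1 FPKM, and the serine synthesis genes Phgdh and Psat1 fell from 86.6 to 58.1 and from 23.4 to 13.9 FPKM, all by less than 2-fold. Mthfd2, an enzyme of mitochondrial one-carbon metabolism and one of the 15 largest falls, had 7.22, 7.53 and 7.68 FPKM at day 6 and 2.69, 2.58 and 2.44 FPKM at day 8 (log2 difference -1.25 ± 0.078, adjusted p = 2.51e-08). The chaperones Hspa5, Hsp90b1, Calr and Pdia4 did not pass, whereas Xbp1 rose from 23.5 to 39.4 FPKM and Vldlr, a lipoprotein receptor, had 1.68, 1.79 and 2.02 FPKM at day 6 and 4.82, 4.70 and 5.15 FPKM at day 8 (log2 difference 1.06 ± 0.072, adjusted p = 5.15e-08). Ddit3, a further target of Atf4, was listed at 0 in all libraries.

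Several of the largest rises fell in none of the groups above. Pcp4l1, a small protein with a calmodulin-binding motif, had 2.95, 3.31 and 2.39 FPKM at day 6 and 19.2, 23.9 and 23.4 FPKM at day 8 (log2 difference 2.58 ± 0.14, adjusted p = 8.67e-09). Prph (chr15:99055174-99058978), the intermediate filament peripherin of peripheral neurons, had 4.43, 3.96 and 3.65 FPKM at day 6 and 27.9, 27.6 and 27.7 FPKM at day 8 (log2 difference 2.52 ± 0.14, adjusted p = 6.29e-09). Tmem255a had 4.20, 4.08 and 3.84 FPKM at day 6 and 27.8, 26.1 and 27.1 FPKM at day 8 (log2 difference 2.47 ± 0.13, adjusted p = 3.50e-09). All 3 had E12.5_GC means below their day 8 means, at 10.8, 0.657 and 6.44 FPKM. Lrrc17, a secreted leucine-rich repeat protein, had 1.26, 1.18 and 1.07 FPKM at day 6 and 12.1, 9.06 and 9.40 FPKM at day 8 (log2 difference 2.36 ± 0.11, adjusted p = 1.77e-09). Islr, another protein of this kind found in stromal cells, had 10.03, 9.71 and 10.4 FPKM at day 6 and 59.4, 47.9 and 47.6 FPKM at day 8 (log2 difference 2.24 ± 0.11, adjusted p = 3.21e-09). Tagap, a GTPase-activating protein known from T cells, had 0.684, 0.949 and 0.558 FPKM at day 6 and 7.29, 6.83 and 7.22 FPKM at day 8 (log2 difference 2.24 ± 0.076, adjusted p = 1.17e-10). Prph stood apart from other neuronal genes, of which 6 were tested and 1, Stmn2, was called, with 0.666, 0.779 and 0.793 FPKM at day 6 and 3.04, 2.52 and 2.69 FPKM at day 8 (log2 difference 1.10 ± 0.11, adjusted p = 1.62e-06), while 3 were lower by adjusted p, against 20.9% of all genes.

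Chac1, Mthfd2 and Eno3, given above, were among the 15 largest falls, and Wnt6, another of them, is given with the Wnt genes. Col2a1 (chr15:97975602-98004695), the fibrillar collagen of cartilage and notochord, had 14.6, 14.4 and 14.2 FPKM at day 6 and 1.82, 1.68 and 1.65 FPKM at day 8, 8.35 times as high at day 6 (log2 difference -2.50 ± 0.11, adjusted p = 1.33e-09). Col11a1, its partner in cartilage fibrils, had 17.4, 18.4 and 17.2 FPKM at day 6 and 6.995, 6.96 and 7.003 FPKM at day 8 (log2 difference -1.22 ± 0.073, adjusted p = 1.67e-08). Both moved against the other fibrillar collagens. Cxcl15 (chr5:90794534-90803067), a chemokine of the lung, had 20.2, 16.4 and 17.5 FPKM at day 6 and 2.94, 2.86 and 3.29 FPKM at day 8 (log2 difference -2.24 ± 0.091, adjusted p = 4.38e-10), and it was listed at 0 in all 3 E12.5_GC libraries. Foxa2 (chr2:148042877-148046969), a pioneer factor of endoderm, had 18.3, 16.8 and 17.3 FPKM at day 6 and 6.99, 6.38 and 7.15 FPKM at day 8 (log2 difference -1.24 ± 0.10, adjusted p = 4.89e-07).

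Aldh1a7, a dehydrogenase closely related to Aldh1a1, had 12.2, 11.4 and 12.1 FPKM at day 6 and 3.42, 2.83 and 2.81 FPKM at day 8 (log2 difference -1.68 ± 0.14, adjusted p = 2.96e-07). Both genes are close copies, so that reads may be split between them and the values are uncertain, and Aldh1a1 fell as well, from 7.26 to 3.53 FPKM by less than 2-fold. Ripply3, a repressor of T-box factors in the pharyngeal region, had 9.32, 8.99 and 8.46 FPKM at day 6 and 2.48, 2.12 and 2.52 FPKM at day 8 (log2 difference -1.56 ± 0.11, adjusted p = 8.80e-08). Fgf5, a growth factor of the primed epiblast, had 6.47, 7.57 and 6.72 FPKM at day 6 and 2.04, 2.30 and 2.31 FPKM at day 8 (log2 difference -1.30 ± 0.068, adjusted p = 4.14e-09). In both the day 8 libraries lay under all those of day 6, as was so for every gene called lower. Tmtc4, an O-mannosyltransferase of cadherins, had 22.3, 23.3 and 23.03 FPKM at day 6 and 8.05, 8.21 and 8.58 FPKM at day 8 (log2 difference -1.36 ± 0.074, adjusted p = 6.26e-09). Tspan12, a tetraspanin that helps Norrin and Fzd4 signal, had 13.1, 13.46 and 14.1 FPKM at day 6 and 4.96, 5.02 and 4.99 FPKM at day 8 (log2 difference -1.28 ± 0.058, adjusted p = 1.16e-09). Raet1e, a ligand of the natural killer receptor NKG2D, and H2-Q2, a non-classical class I gene, belong to families of close copies, so that their values are uncertain. Raet1e had 15.00, 14.3 and 15.04 FPKM at day 6 and 5.33, 5.30 and 5.37 FPKM at day 8 (log2 difference -1.32 ± 0.11, adjusted p = 4.86e-07). H2-Q2 had 5.61, 5.07 and 5.63 FPKM at day 6 and 1.09, 2.02 and 1.70 FPKM at day 8 (log2 difference -1.32 ± 0.10, adjusted p = 2.56e-07). Peg10, an imprinted gene derived from a retrotransposon and active in placenta, had 414, 408 and 419 FPKM at day 6 and 163, 189.8 and 188 FPKM at day 8 (log2 difference -1.20 ± 0.19, adjusted p = 1.46e-04), and it was the only call among 18 imprinted genes tested.

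Signalling genes changed in both directions. Of 35 Wnt pathway genes tested, 14 were higher and 6 lower by adjusted p, against 20.3% and 20.9% of all genes, with a median of 0.03. Among ligands, Wnt5a (chr14:28504750-28527448), which mostly signals without beta-catenin, had 7.16, 7.21 and 7.19 FPKM at day 6 and 30.1, 27.7 and 28.5 FPKM at day 8 (log2 difference 1.86 ± 0.14, adjusted p = 1.28e-07). Wnt2 had 0.389, 0.379 and 0.353 FPKM at day 6 and 2.46, 1.78 and 1.61 FPKM at day 8 (log2 difference 1.09 ± 0.10, adjusted p = 1.16e-06). Wnt6 (chr1:74771892-74785322) had 74.0, 72.0 and 71.2 FPKM at day 6 and 32.5, 27.5 and 28.7 FPKM at day 8 (log2 difference -1.27 ± 0.15, adjusted p = 9.12e-06). Wnt6 was thus the one ligand called lower, and its E12.5_GC mean was 171 FPKM. The receptor Fzd1 had 7.74, 7.02 and 7.60 FPKM at day 6 and 22.5, 18.4 and 20.2 FPKM at day 8 (log2 difference 1.33 ± 0.17, adjusted p = 2.26e-05). The secreted antagonists Sfrp2 and Dkk3 rose from 4.44 to 10.3 and from 10.3 to 21.7 FPKM. Among genes known as direct targets of the beta-catenin branch, directions differed, with falls of Axin2 at 23.96 and 16.9, Notum at 17.96 and 10.8, Lef1 at 4.07 and 3.06 and Znrf3 at 7.47 and 4.61 FPKM, all under 2-fold, while the target Nkd1 rose from 27.6 to 36.5 FPKM and Rnf43 and Tcf7 did not pass. Without replicate 1 of day 8, 2 Wnt genes were called higher in place of 5, and Wnt2 then differed by less than 2-fold.

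The BMP and TGF-beta pathway had 18 of 33 tested genes higher and 4 lower by adjusted p, against 20.3% and 20.9% of all genes. The median was 0.37. The ligand gene Inhba, the activin A subunit, had 1.43, 1.29 and 1.51 FPKM at day 6 and 6.13, 6.49 and 6.34 FPKM at day 8 (log2 difference 1.60 ± 0.058, adjusted p = 1.99e-10). Tgfb3 had 21.03, 21.8 and 21.9 FPKM at day 6 and 54.7, 52.7 and 51.6 FPKM at day 8 (log2 difference 1.26 ± 0.075, adjusted p = 1.67e-08). The receptor Tgfbr2 had 5.69, 5.49 and 5.54 FPKM at day 6 and 13.7, 12.3 and 11.8 FPKM at day 8 (log2 difference 1.05 ± 0.090, adjusted p = 5.79e-07). Among targets of BMP signals, Id4 had 4.85, 4.10 and 4.46 FPKM at day 6 and 11.6, 13.7 and 13.96 FPKM at day 8 (log2 difference 1.36 ± 0.19, adjusted p = 5.51e-05). Id1, Id3 and Smad6 rose by less than 2-fold, and Msx1 fell from 20.2 to 10.7 FPKM. Fst, the activin antagonist of the fetal ovary, had 2.13 and 2.65 FPKM against 58.6 FPKM in E12.5_GC and did not pass. Without replicate 1 of day 8, 3 genes were called higher in place of 5, and Tgfbr2 then differed by less than 2-fold.

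Genes of retinoic acid metabolism and response, the pathway that AM580 acts on, had 5 of 19 tested genes higher and 4 lower by adjusted p, with a median of -0.02, which is close to the shares of 20.3% and 20.9% and the median of -0.02 over all genes. Dhrs3, a reductase that lowers retinaldehyde and is induced by retinoic acid, had 32.3, 28.6 and 29.8 FPKM at day 6 and 83.6, 73.6 and 73.1 FPKM at day 8 (log2 difference 1.32 ± 0.15, adjusted p = 7.33e-06). Crabp2, which carries retinoic acid to its receptors, had 20.9, 24.2 and 23.1 FPKM at day 6 and 13.3, 10.01 and 9.04 FPKM at day 8 (log2 difference -1.02 ± 0.15, adjusted p = 1.09e-04), and it was under 2-fold without replicate 2 of day 6, replicate 2 of day 8 or replicate 3 of day 8. Cyp26a1, which degrades retinoic acid, rose from 46.9 to 65.1 FPKM by less than 2-fold, and Rdh10, which makes its precursor, fell from 35.1 to 18.2 FPKM. The receptors Rara, Rarb, Rxra and Rxrb did not pass, whereas Rarg rose from 10.9 to 16.1 FPKM. Among genes of the insulin-like growth factor axis, Igfbp6 (chr15:102144362-102149511), a binding protein for Igf2, had 11.1, 11.2 and 11.8 FPKM at day 6 and 60.9, 58.7 and 54.0 FPKM at day 8 (log2 difference 2.25 ± 0.11, adjusted p = 1.63e-09). Igf2bp1, a fetal RNA-binding protein, had 32.4, 31.2 and 32.8 FPKM at day 6 and 14.3, 13.95 and 14.3 FPKM at day 8 (log2 difference -1.13 ± 0.099, adjusted p = 6.88e-07). Igfbp3, Igfbp5 and Igfbp7 rose by less than 2-fold, and Igf2 at 29.9 and 30.9 FPKM did not pass. Neither the Hippo pathway (24 tested, 4 higher and 6 lower) nor the Hox genes (17 tested, 2 higher and 1 lower) held a gene that changed at least 2-fold. Their counts are by adjusted p, against 20.3% higher and 20.9% lower of all genes.

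Other cell types were represented unevenly. Numbers of genes higher or lower, where not said to be called, are by adjusted p, against 20.3% and 20.9% of all genes. The pluripotency factors Pou5f1 and Nanog were low at both days, with 0.371, 0.320 and 0.410 FPKM at day 6 and 0.363, 0.521 and 0.365 FPKM at day 8 for Pou5f1 (log2 difference 0.05 ± 0.13, adjusted p = 0.794), and with 0.568, 0.602 and 0.430 FPKM at day 6 and 0.546, 0.643 and 0.779 FPKM at day 8 for Nanog, which did not reach the level needed for a test. Of 14 such genes tested, 6 were lower and 2 higher, and Sox2, also a factor of neural tissue, was called, with 4.67, 4.11 and 4.32 FPKM at day 6 and 1.65, 1.49 and 1.47 FPKM at day 8 (log2 difference -1.08 ± 0.11, adjusted p = 3.85e-06). Among 22 genes of extraembryonic endoderm, 13 were higher and 3 lower, with S100g, a calcium-binding protein, at 76.0, 60.1 and 71.7 FPKM at day 6 and 163, 161 and 143 FPKM at day 8 (log2 difference 1.16 ± 0.14, adjusted p = 1.08e-05), Nid1, a basement membrane protein, at 10.2, 9.204 and 9.40 FPKM at day 6 and 26.1, 21.6 and 22.9 FPKM at day 8 (log2 difference 1.21 ± 0.17, adjusted p = 7.05e-05) and Pdgfra, also a receptor of mesenchyme, at 8.18, 7.62 and 7.81 FPKM at day 6 and 18.9, 16.6 and 16.98 FPKM at day 8 (log2 difference 1.06 ± 0.11, adjusted p = 2.44e-06). The visceral endoderm receptors Cubn and Lrp2 fell instead by less than 2-fold and the endoderm factor Sox17 at 6.17 and 6.78 FPKM did not pass. Foxa2 was the 1 gene of this list called lower, against 3 called higher.

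Of 11 endothelial genes tested, 4 were higher and 0 lower by adjusted p, against 20.3% and 20.9% of all genes. Kdr, the main VEGF receptor, had 16.8, 18.5 and 17.8 FPKM at day 6 and 44.3, 45.8 and 43.9 FPKM at day 8 (log2 difference 1.29 ± 0.13, adjusted p = 3.57e-06). Eng, a TGF-beta co-receptor, had 3.23, 2.999 and 2.82 FPKM at day 6 and 10.01, 7.61 and 7.60 FPKM at day 8 (log2 difference 1.22 ± 0.094, adjusted p = 2.03e-07). Markers more specific to vessels did not pass, with Cdh5 at 2.48 and 3.40, Pecam1 at 0.143 and 0.285 and Tie1 at 0.0864 and 0.0850 FPKM, against 28.2, 12.2 and 13.4 FPKM in E12.5_GC. Leukocyte genes (13 tested, 1 higher) and erythroid genes (4 tested, 0 that passed) were near 0 in their defining members, with Ptprc at 0 and 0.000743 FPKM and Hba-a1 at 0.0369 and 0 FPKM. No gene was called among the cardiac (8 tested), germ cell (11), steroid synthesis (9) and nephron (11) lists. Placenta-associated genes (8 tested) held 2 calls, both lower, which were Peg10 and Wnt6. Of 5 tested genes of liver and yolk sac secretion 3 were higher by adjusted p, with Apoe at 64.3 and 124 FPKM. Spink1, a trypsin inhibitor, was the 1 gene of this list called, with 2.39, 1.39 and 2.58 FPKM at day 6 and 7.74, 8.43 and 8.20 FPKM at day 8 (log2 difference 1.57 ± 0.14, adjusted p = 7.77e-07). None of 13 mitochondrially encoded genes was in the table.

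The step from day 6 to day 8 was set beside the steps before and after it, with which it shares libraries. By the same rule 585 genes were called between days 4 and 6 (5.08%), 393 of them higher (3.41%), and 149 between days 8 and 10 (1.29%), 112 of them higher (0.973%). In a test of the difference itself, the step from day 6 to day 8 differed at least 2-fold from the next step for 331 genes (2.88%) and from the previous step for 682 genes (5.92%). Genes given below with this test were picked for opposite calls in the 2 steps, so that its p-values add little of their own. Amhr2 rose to day 8 and fell back, with means of 1.25, 5.76, 24.6 and 5.53 FPKM at days 4, 6, 8 and 10, and its step differed from the next by 3.90 ± 0.18, adjusted p = 2.43e-08 (log2, SE). Nr4a1 had 8.11, 50.2, 144 and 21.4 FPKM at these days (4.25 ± 0.40, adjusted p = 1.08e-05 for the same difference), and S100g had 2.28, 69.2, 156 and 76.6 FPKM (2.19 ± 0.24, adjusted p = 2.97e-05). These genes were thus highest at day 8 among the induced cells. Chac1 was lowest there, with 3.13, 3.66, 0.508 and 2.95 FPKM (-3.00 ± 0.19, adjusted p = 2.42e-07).

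Other genes turned at day 6. Isg15 had 4.62, 1.41, 11.5 and 23.4 FPKM at days 4, 6, 8 and 10, and Prph had 14.7, 4.01, 27.8 and 43.2 FPKM, both lowest at day 6, with differences from the previous step of 3.65 ± 0.24, adjusted p = 9.31e-08, and 4.17 ± 0.24, adjusted p = 1.85e-08. Eng was also lowest at day 6 (2.22 ± 0.16, adjusted p = 2.70e-07). Conversely, Cxcl15 was highest at day 6, with 1.94, 18.03, 3.03 and 0.273 FPKM (-4.93 ± 0.16, adjusted p = 9.92e-11), as were Col11a1 (-3.01 ± 0.13, adjusted p = 1.08e-09), Tmtc4 (-2.53 ± 0.13, adjusted p = 6.72e-09) and Tspan12 (-2.32 ± 0.10, adjusted p = 1.27e-09). In contrast, Col6a1, Col1a1 and Mylk had a higher mean at each later day, from 0.219 FPKM at day 4 to 22.5 FPKM at day 10 for Mylk.

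**Figure D5:**
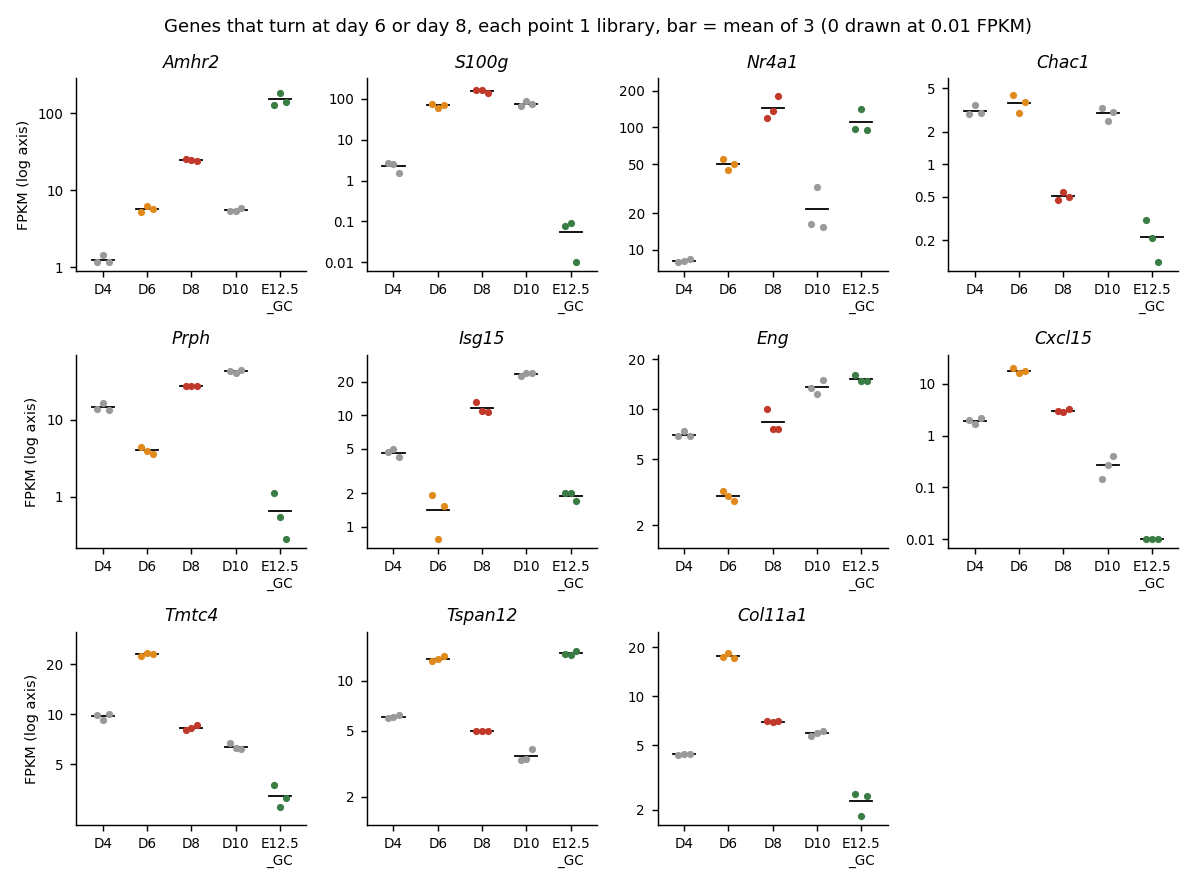
FPKM on log axes of 11 genes whose step from day 6 to day 8 and a neighbouring step were both called, in opposite directions, with 1 point per library, a bar at the mean of 3, and E12.5_GC libraries on the right. Amhr2, S100g and Nr4a1 are highest at day 8 and Chac1 is lowest there among the induced cells, Prph, Isg15 and Eng are lowest at day 6, and Cxcl15, Tmtc4, Tspan12 and Col11a1 are highest at day 6.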

How the data were processed

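Bulk poly(A) RNA-seq libraries were prepared with an NEBNext Ultra kit. Per the labels, the authors' processing used Trim Galore, FastQC, HISAT2, SAMtools, featureCounts and RSEM with the mm10 build, and versions and how FPKM was computed from the counts are not given in the sources used here. The deposited table held FPKM per gene, of which 15 of 31 value columns were used and 16 were not.

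Genes that reached 1 FPKM in 3 or more of 15 libraries (5 groups) were tested with limma 3.58.1 (R 4.3.3, trended prior variance) on log2(FPKM + 1), with Benjamini-Hochberg adjustment over all genes tested and 10 residual degrees of freedom. A difference was called when it passed an adjusted p of 0.05 and reached 2-fold. The test was checked on simulated data. Gene positions and exon lengths came from GENCODE vM21 (GRCm38), and promoters from RefSeq (GRCm38.p6). The genes named were the 15 largest rises and the 15 largest falls among called genes with a mean of at least 5 FPKM in the higher group, no overlap between days and no predicted or clone name, and up to 4 called members of each list with the largest change, besides Gata4, Foxl2, Cd63, Pou5f1 and Nanog. All others were chosen after their values were seen. The comparison and the lists were chosen with earlier results of these data known. The alternatives were other pseudocounts, filters, samples in the fit, replicate blocks, scalings, weights, the fold threshold and leaving out each library of days 6 and 8, and limma-voom on fragments recovered from FPKM, which was added after seeing the data. Some list members are not reported here by name.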

Additional observations from a re-analysis of the deposited data

Results flagged for a closer look

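For 11 of the genes named, the step from day 6 to day 8 and a neighbouring step were both called, each at least 2-fold and in opposite directions, and the difference of the 2 steps passed its own test. Opposite calls already imply a large difference of steps, so that this test adds little of its own. Day 6 or day 8 libraries enter both steps, so that a high or low value on the shared day moves both. Against the step from day 4 to day 6, the difference was 4.168 on the log2 scale for Prph, 3.649 for Isg15 and 2.221 for Eng, which were lowest at day 6. It was -4.928 for Cxcl15, -3.009 for Col11a1, -2.526 for Tmtc4 and -2.321 for Tspan12, which were highest at day 6. Against the step from day 8 to day 10, it was 3.896 for Amhr2, 4.246 for Nr4a1 and 2.185 for S100g, which were highest at day 8, and -2.999 for Chac1, which was lowest at day 8.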

How the results depend on the processing

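The number of genes called between days 6 and 8 varied between settings, with 293 called here (264 higher, 29 lower). It was 599 with a pseudocount of 0.1 (512 higher, 87 lower) and 84 with a pseudocount of 5 (77 and 7). After rescaling each library to the same, larger sum of FPKM it was 541 (448 and 93). With limma-voom on the recovered fragments it was 651 (548 and 103), and with no fold threshold 4737 (2332 and 2405, 49.2% higher). The larger sum exceeded that of every library and raised all values, while the added 1 and the filter at 1 FPKM stayed. With it 12708 genes were tested in place of 11512. That setting thus also acts like a smaller pseudocount, and it cannot show the effect of equal sums alone. All 84 genes called with a pseudocount of 5 were also called here, which was nearly fixed in advance, since a larger pseudocount shrinks each difference. Of the 293, 277 were called by limma-voom. It tested only the 10881 genes with recovered fragments, so that some of the 293, such as Msln and Spink1, could not be called by it. The genes whose step differed from the next step numbered 331 here and 690, 90, 723, 789 and 2522 under these settings in the same order, and those whose step differed from the previous one numbered 682 here and 1182, 207, 1252, 1159 and 3231. Other filters, fits of fewer libraries, rescaling by median ratios, library weights and a fit without a trend gave 252 to 302 calls. The 302 came from rescaling by median ratios.

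The calls ranged from 279 to 300 when 1 library was left out (246 to 272 higher, 27 to 33 lower, 88.2% to 90.9% higher), and the numbers of steps that differed ranged from 319 to 334 and from 642 to 688. Pou5f1, which did not pass, ranged from -0.0027 without replicate 2 of day 8 to 0.076 without replicate 1 of day 8. Crabp2 lost its call without replicate 2 of day 6, replicate 2 of day 8 or replicate 3 of day 8, and Wnt2 and Tgfbr2 lost theirs without replicate 1 of day 8. With a pseudocount of 5, 31 of the 74 named genes tested lost their call or no longer passed, and 11 matrix genes, 2 contractile genes and 3 interferon genes were called. After rescaling to the same larger sum, which also lessens the weight of the added 1, 1 replication gene was called lower.

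The deviations of same-numbered libraries from their group means correlated at 0.0268, -0.0246 and -0.0378. These values gave no sign of pairing by replicate number, but with replicates this close they cannot exclude it. A replicate block gave the same 293 calls in the fit of 12 libraries and in that of 6, and with it 336 and 695 steps differed from the next and from the previous one. The block changed no call of a named gene. With balanced replicate numbers a block leaves each log2 difference as it was. The equal counts were thus nearly fixed in advance and tell little of pairing.

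Genes of low FPKM can rest on few fragments, depending on exon length, and their changes on this scale are understated. At day 6, Oasl2 at 0.374 to 0.506 FPKM had 53 to 77 fragments, and the shorter Isg15 at 0.773 to 1.92 FPKM had 13 to 33. Log2 differences correlated weakly with exon length across 11479 genes (Spearman -0.147), and genes are not independent replicates.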
